A study of Sus scrofa with 21 samples.

Results

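The genes described here are the classical targets of type I interferon, taken as a list of 42 names and looked up by gene name in the small intestine of 21 piglets. Of these names, 38 matched a gene of the files, which hold 18661 genes in all, and no gene of the files matched OAS1, IFIT3, XAF1 or RTP4. All 38 passed the filter on low counts, as did 13127 genes in all, and the lowest expected count of any of the 38 in any piglet was 5. The names are textbook interferon-stimulated genes, and the list was proposed with earlier results of these data known.

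Danish Landrace/Yorkshire piglets were killed at 24 to 25 days of age, and RNA of the distal small intestine was sequenced. Controls, 10 piglets called control 1 to control 10 here, had received a milk replacer. The starch group, 11 piglets called starch 1 to starch 11, had received that replacer with wheat added as the source of starch. The labels number the piglets and give no litter, sex or batch, and the samples are whole tissue, so fewer cells of a type and less RNA per cell cannot be told apart. Libraries held 6719264 to 8610458 expected counts. Markers of the absorptive epithelium were present in every piglet, but their summed level was low in 3 of them. In CPM (counts scaled to the size and composition of the library) starch 3 read 1243, control 5 read 1288 and control 8 read 1707, against 9751 to 38150 CPM in the other 18.

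Type I interferons are secreted when a cell senses foreign nucleic acid, and their receptor signals through the kinases JAK1 and TYK2 to a complex with STAT2 and IRF9 that switches on a large set of antiviral genes. The products of these genes sense viral RNA, degrade it or block its translation, hinder virus entry and release, tag proteins with the ubiquitin-like ISG15, and feed back on the signal. In the gut, the same set answers to interferon lambda as well, which acts mainly on epithelial cells.

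Interferon genes were among the more variable genes of this tissue. Over the 21 piglets the highest value of a gene exceeded its lowest by 2.47-fold (NMI) to 298-fold (OASL), with a median of 10.9-fold over the 38 genes against 3.36-fold over all tested genes with no piglet at 0. A span of at least 10-fold was reached by 20 of the 38, and by 12.7% of all tested genes. The median SD of log2 CPM was 0.91 for the interferon genes and 0.45 for all tested genes. The highest values came from few animals. Starch 9 was the highest piglet for 28 of the 38 genes, where it was highest for 2.45% of all tested genes, and starch 7 was highest for 5, against 1.55%. Both together held the top 2 places for 22 of the 38, against 0.434% of all tested genes. Starch 9 was among the 3 highest piglets for 34 genes (10.8% of all tested genes) and starch 7 for 28 (7.31%).

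**Figure D1:**
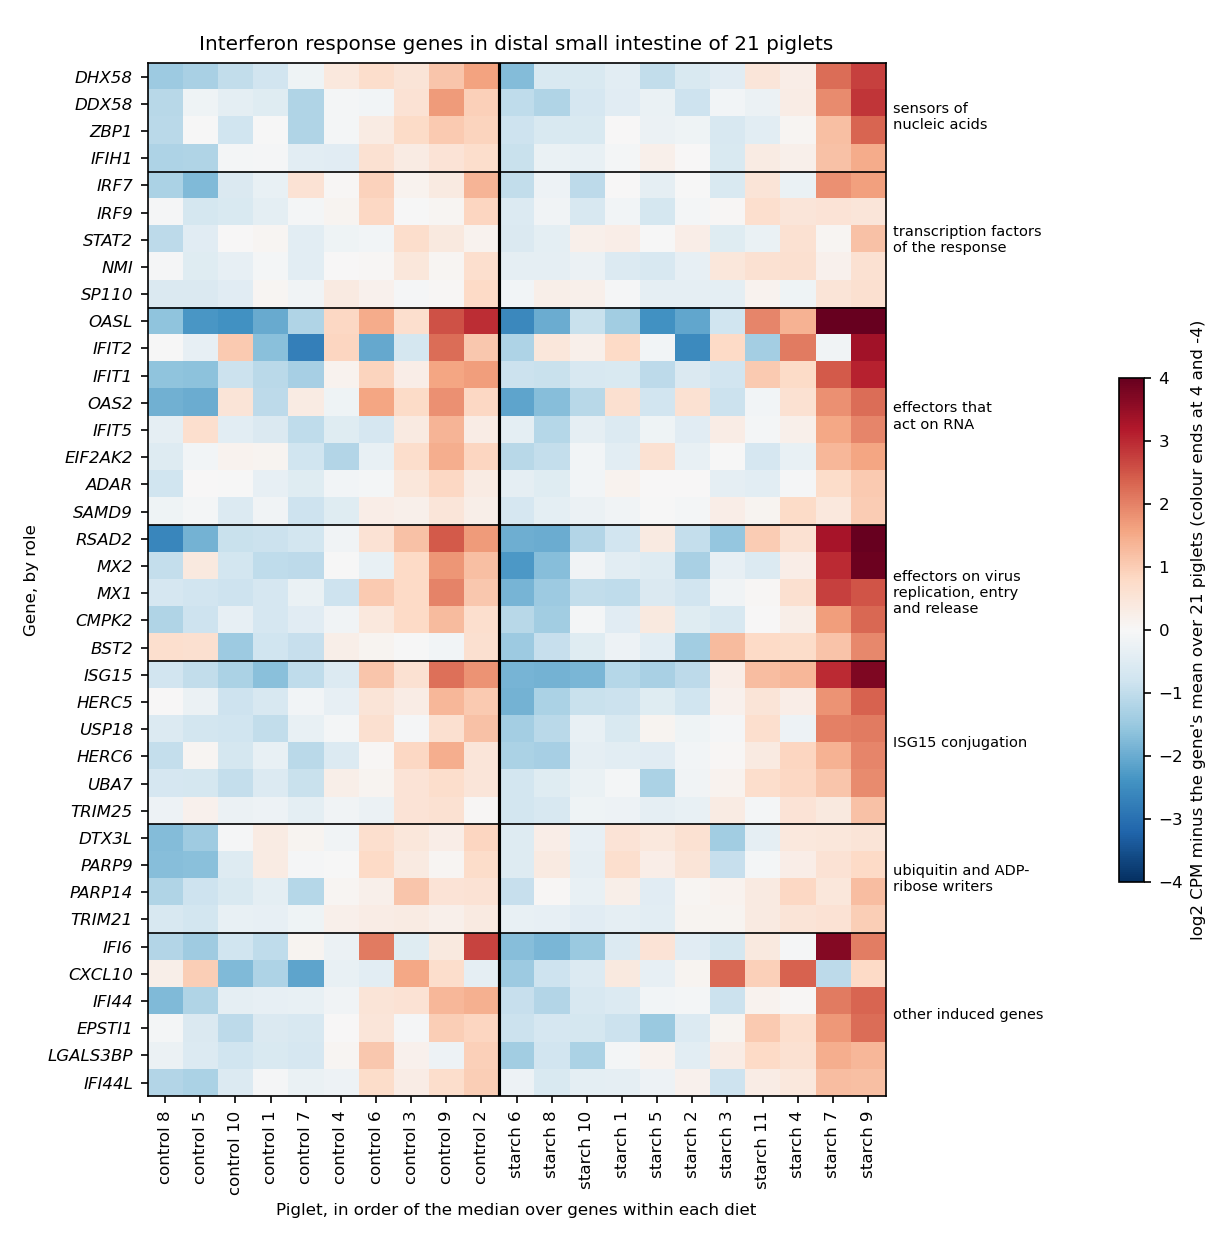
Level of each of the 38 interferon response genes (rows, by role) in each of 21 piglets (columns, control left and starch right of the black line), as log2 CPM minus the gene's mean, with the colour scale ending 4 units either side of it. Starch 9 and starch 7 are the reddest columns, control 2 and control 9 are red for most genes, and starch 6, control 8 and control 5 are among the bluest.

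Most members had their high values in the same few piglets, IFIT2 and CXCL10 least so. Centred on each gene's mean, the median over the 38 genes was 1.93 log2 units in starch 9 and 1.36 in starch 7. Next came 2 controls, control 2 at 0.86 and control 9 at 0.78, which were above a gene's mean for 37 and 36 of the 38 genes. At the other end stood starch 6 at -0.96, below the mean for all 38 genes, control 8 at -0.87 and starch 8 at -0.71. High and low piglets therefore occurred on both diets. The highest piglet apart from starch 7 and starch 9 was a control for 32 of the 38 genes. Starch 9 was also high for B-cell markers, at a summed level of 413 CPM, where starch 7 read 26.8 CPM and the median control 32.1 CPM. Its part in these results was not tested. Starch 10 had the highest B-cell sum, 600.3 CPM, and was above the mean for 3 of the 38 interferon genes.

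The sensors come first in the response. DDX58 (ENSSSCG00000030408), which encodes RIG-I, the sensor of viral RNA ends, read 17.2, 35.9 and 130.8 CPM in controls (lowest, median and highest) and 16.9, 32.8 and 287 CPM in starch piglets. The highest values were 287 CPM in starch 9, 148 CPM in starch 7 and 130.8 CPM in control 9, and the diets overlapped. DHX58, encoding LGP2, a regulator of RIG-I and MDA5, spanned 23.0-fold, ZBP1, a sensor of Z-form nucleic acid that can trigger cell death, 12.2-fold, and IFIH1, encoding MDA5, a sensor of long double-stranded RNA, 6.57-fold. All 4 sensors were highest in starch 9.

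Transcription factors of the response had narrow spans, IRF7 apart. The SD of log2 CPM lay between 0.39 and 0.93 for these 5 genes, and those of SP110, a nuclear body protein, and NMI, an interactor of STAT proteins, lay below the median of all tested genes. IRF7, which drives interferon alpha transcription, was the widest, from 33.5 CPM in control 5 to 412 CPM in starch 7. STAT2 and IRF9, partners in the complex that carries the signal to the nucleus, spanned 4.77-fold and 2.94-fold. Per coding length they were among the more abundant members, with medians over piglets of 45.7 FPKM (fragments scaled to transcript length and library size) for STAT2 and 103 FPKM for IRF9, against 3.35 FPKM for OASL and 7.93 FPKM for RSAD2. The most abundant by that measure was LGALS3BP, a secreted glycoprotein that binds galectins, at 153 FPKM.

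Effectors that act on RNA included the gene with the widest span. OASL (ENSSSCG00000009921) encodes a protein related to the oligoadenylate synthetases that binds RNA and assists RIG-I. It read 0.83, 5.59 and 45.2 CPM in controls (lowest, median and highest) and 0.72, 2.89 and 215 CPM in starch piglets. Starch 9, at 215 CPM, and starch 7, at 146 CPM, lay above all other animals, while the other 9 starch piglets, at 22.5 CPM or less, lay within the control range or just under it. Starch minus control, its log2 fold change was 1.64 (SE 1.03, 95% interval -0.50 to 3.78, unadjusted p = 0.126, adjusted p = 0.9998 in edgeR's quasi-likelihood test with Benjamini-Hochberg adjustment over all tested genes).

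IFIT1 (ENSSSCG00000010452) encodes a protein that binds RNA lacking host cap methylation and blocks its translation. In controls it read 32.9, 84.2 and 325 CPM, and in starch piglets 50.02, 67.4 and 864 CPM. The top 2 values were again those of starch 9 and starch 7 (565 CPM), and the third and the fourth were controls 2 and 9. Its log2 fold change was 0.68 (SE 0.59, 95% interval -0.55 to 1.91, unadjusted p = 0.264 in the edgeR test).

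IFIT2 (ENSSSCG00000010451), a partner of IFIT1 in the same RNA-binding complexes, followed another order. It read 1.41, 9.57 and 51.7 CPM in controls and 1.63, 12.5 and 113 CPM in starch piglets. Starch 9 was highest at 113 CPM, but starch 7 read 9.86 CPM, below the median of the starch group, an 11.4-fold gap between these libraries. Control 9 came next, and then starch 4 at 46.6 CPM. IFIT2 had a log2 fold change of 0.63 (SE 0.65, 95% interval -0.71 to 1.97, unadjusted p = 0.344 in the edgeR test).

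OAS2 (ENSSSCG00000009881) makes the short adenylate chains that activate the RNA-cleaving enzyme RNase L. Controls ran from 21.02 over a median of 114 to 301 CPM, and starch piglets from 19.3 over 79.3 to 403 CPM. Starch 9, starch 7 and control 9 were highest, and the lowest values, in starch 6, control 5 and control 8, came from both diets. The fitted difference was near nil, with a log2 fold change of -0.0031 (SE 0.53, 95% interval -1.11 to 1.10, unadjusted p = 0.995 in the edgeR test). Of the remaining genes of this role, IFIT5 spanned 8.64-fold, EIF2AK2 (PKR, the kinase that halts translation on double-stranded RNA) 6.86-fold, ADAR (which edits adenosine in double-stranded RNA) 3.62-fold and SAMD9 (a restriction factor of poxviruses) 3.58-fold. All 8 genes of this role were highest in starch 9.

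**Figure D2:**
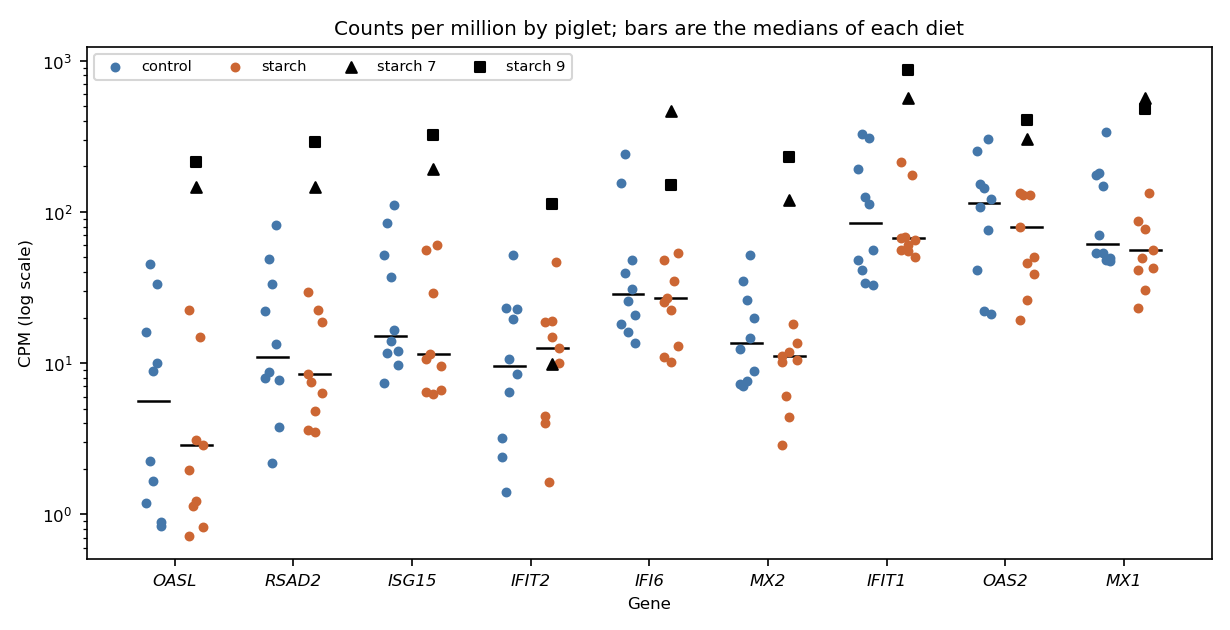
CPM on a log scale for the 8 interferon genes with the largest SD of log2 CPM, and for MX1, in 10 control (blue) and 11 starch piglets (orange, with starch 7 and starch 9 in black), with the median of each diet as a bar. For OASL, RSAD2, ISG15, MX2, IFIT1, OAS2 and MX1 starch 7 and starch 9 are the top 2 points, for IFIT2 starch 7 lies among the other starch piglets, and for 8 of the 9 genes the control bar is the higher.

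Effectors on virus replication, entry and release had high values in the same animals. RSAD2 (ENSSSCG00000008648) encodes viperin, which makes a chain-terminating nucleotide that stops viral polymerases. Controls had a lowest, median and highest value of 2.17, 11.0 and 82.2 CPM, and starch piglets of 3.50, 8.49 and 292 CPM. The lowest piglet was control 8, the highest 2 were starch 9 and starch 7 (147 CPM), followed by control 9. RSAD2 had a log2 fold change of 1.11 (SE 0.81, 95% interval -0.57 to 2.78, unadjusted p = 0.186 in the edgeR test). The neighbouring CMPK2, a mitochondrial nucleotide kinase, ran from 5.18 to 70.6 CPM, with the same top 3 piglets.

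MX1 (ENSSSCG00000012077) encodes a dynamin-like GTPase that traps viral nucleoproteins and is a standard readout of interferon action. It read 47.1, 61.6 and 335 CPM in controls and 23.2, 56.3 and 568 CPM in starch piglets. Here starch 7 was highest, followed by starch 9 at 481 CPM and control 9, and starch 6 was lowest. Its log2 fold change was 0.32 (SE 0.57, 95% interval -0.86 to 1.501, unadjusted p = 0.580 in the edgeR test).

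The related GTPase MX2 (ENSSSCG00000012076) read 7.07, 13.5 and 52.2 CPM in controls and 2.88, 11.1 and 231 CPM in starch piglets. Apart from starch 9 at 231 CPM and starch 7 at 119 CPM, no starch piglet exceeded 18.05 CPM, while 4 controls read between 19.7 and 52.2 CPM. MX2 had a log2 fold change of 1.07 (SE 0.70, 95% interval -0.37 to 2.51, unadjusted p = 0.139 in the edgeR test). BST2, which encodes tetherin, a membrane protein that holds budding virus at the cell surface, differed from the others of its role in that starch 3, at 61.0 CPM, was second to starch 9, at 95.7 CPM.

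The ISG15 pathway was represented from the tag to its removal. ISG15 (ENSSSCG00000040575), the ubiquitin-like protein itself, read 7.41, 15.2 and 111 CPM in controls and 6.24, 11.5 and 322 CPM in starch piglets. Starch 9 and starch 7 (193 CPM) were above the 111 CPM of control 9, and the lowest values were those of starch 8, starch 6 and starch 10. Its log2 fold change was 0.87 (SE 0.74, 95% interval -0.66 to 2.39, unadjusted p = 0.251 in the edgeR test). The activating enzyme UBA7 spanned 9.10-fold, the ligases HERC5 and HERC6 18.9-fold and 9.73-fold, the ligase TRIM25, which also acts on RIG-I, 3.84-fold, and USP18, which removes ISG15 and dampens the receptor, 11.0-fold. All 6 genes were highest in starch 9.

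Writers of ubiquitin and ADP-ribose had the narrowest spans of the effector groups, 3.39-fold to 6.22-fold. The partners DTX3L, a ubiquitin ligase, and PARP9 were both lowest in control 8, at 15.5 and 38.8 CPM. DTX3L was highest in control 2, and PARP9 read 225 CPM in starch 9 and 223 CPM in control 6. PARP14, an ADP-ribosyltransferase, spanned 5.41-fold, and TRIM21, an antibody receptor and ubiquitin ligase inside the cell, 3.39-fold.

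Among the other induced genes, IFI6 and CXCL10 had orders of their own. IFI6 (ENSSSCG00000034570) encodes a small membrane protein that protects against cell death and flavivirus replication, and it read 13.5, 28.5 and 240 CPM in controls and 10.2, 26.8 and 466 CPM in starch piglets. Starch 7 was highest, but the second and the third places went to control 2 and control 6 (154 CPM), ahead of starch 9 at 151 CPM. IFI6 had a log2 fold change of 0.37 (SE 0.69, 95% interval -1.07 to 1.81, unadjusted p = 0.597 in the edgeR test).

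CXCL10 (ENSSSCG00000032474) encodes a chemokine that draws activated T cells and answers to type I and type II interferon. Its values were 4.38, 15.7 and 57.6 CPM in controls and 7.06, 21.4 and 101 CPM in starch piglets. The highest piglets were starch 4, at 101 CPM, starch 3, at 97.0 CPM, and control 3, whereas starch 9 read 34.3 CPM and starch 7 read 9.47 CPM, less than the median of either diet. The 4 remaining genes of this group, IFI44, IFI44L, EPSTI1 and LGALS3BP, all had their top 2 values in starch 7 and starch 9.

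Which genes moved together across piglets was asked with MX1 as the reference gene. Over the 21 piglets the Spearman correlation of the other 37 genes with MX1 had a median of 0.73 and ran from 0.17 (IFIT2) to 0.96 (HERC5), and all 37 were positive. A rho of at least 0.7 was reached by 20 of the 37, and by 0.251% of all tested genes. In a two-sided permutation test of rho adjusted over all tested genes, 14 of the 37 had an adjusted p under 0.05, against 0.145% of all tested genes. By Pearson r 27 of the 37 did, and the share of all tested genes was not counted for r. The 3 genes ranked nearest to MX1 in the whole table were HERC5 (Pearson r 0.96, rho 0.96), ISG15 (r 0.95, rho 0.90) and USP18 (r 0.90, rho 0.86), each with an adjusted permutation p of 0.0164 for rho. Of the 25 genes nearest to MX1, 18 were interferon genes of the list, and of the nearest 100, 31.

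Without starch 7 and starch 9 most coefficients were lower but of the same order. These were the 2 piglets farthest from the MX1 median, and without them the median rho was 0.67, with a Pearson r for HERC5 of 0.93 and for ISG15 of 0.93. A rho of at least 0.7 was then reached by 13 of the 37, and by 0.114% of all tested genes. By rho no correlation passed the adjustment among the 19 piglets. The smallest adjusted p of rho was 0.0656, held by 2 genes at the smallest p that 100000 permutations can give, 1e-05. By Pearson r 11 of the 37 passed, HERC5 and ISG15 among them (adjusted permutation p = 0.0219), and the share of all tested genes was again not counted. Without control 5, control 8 and starch 3, the piglets with a low sum of absorptive markers, the median rho was 0.79. By rho 14 of the 37 then passed, against 0.13% of all tested genes. On log2(FPKM + 0.5) 13 of the 37 passed by rho, against 0.122%.

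**Figure D3:**
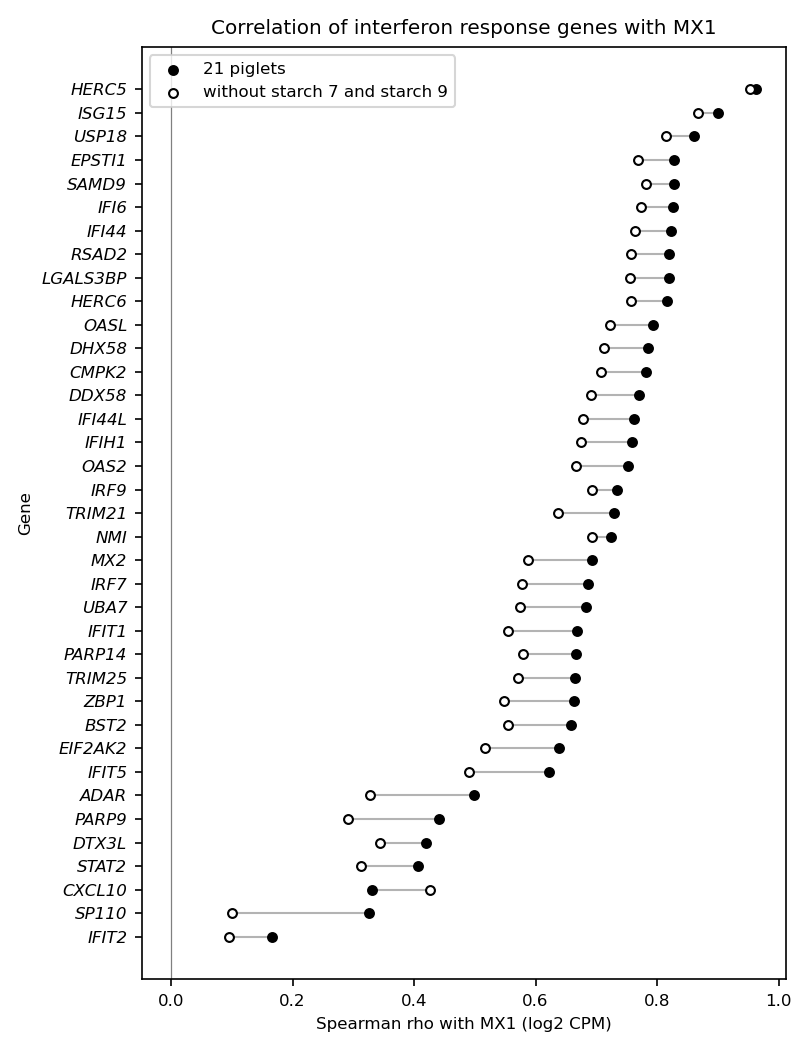
Spearman rho of each of 37 interferon genes with MX1 on log2 CPM, over 21 piglets (filled) and without starch 7 and starch 9 (open). Values run from 0.17 for IFIT2 to 0.96 for HERC5, and for all genes but CXCL10 the open point lies to the left.

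A minority followed MX1 loosely. IFIT2 (r 0.38, rho 0.17, permutation p = 0.470 for rho), SP110 (rho 0.33), CXCL10 (r 0.28, rho 0.33, permutation p = 0.143), STAT2 (rho 0.41), DTX3L (rho 0.42), PARP9 (rho 0.44) and ADAR (rho 0.50) were the 7 lowest. Over all 703 pairs of the 38 genes, rho had a median of 0.67, 308 pairs reached 0.7 and 6 were below 0. By the median of a gene's rho with the other 37, IFIT2 at 0.30 and CXCL10 at 0.33 were the least tied to the rest, and DHX58 at 0.79 and RSAD2 at 0.77 the most.

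The 12 genes outside the list with a symbol and the highest rho with MX1 began with DDX60, a helicase that promotes RIG-I signalling (rho 0.85), PML, the scaffold of nuclear bodies (0.85), and PARP12, an antiviral ADP-ribosyltransferase (0.78). Then came ISG12(A), a mitochondrial interferon-induced protein (0.77), HSH2D (0.77), the RNA helicase-like ZNFX1 (0.73), the proteasome inhibitor PSMF1 (0.73) and UBE2L6, the conjugating enzyme for ISG15 (0.71). ETV7 (0.71), C2CD3 (0.70), FBXO39 (0.70) and CDHR4 (0.68) closed the set. Starch 9 was the highest piglet for 10 of these genes, with ISG12(A) and HSH2D highest in starch 7.

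All 38 members were set against genes known mainly for the response to interferon gamma. These form a separate list with IRF1, CXCL9, GBP1, GBP2 and the immunoproteasome among them. This comparison was chosen after the data were seen. The summed level of that list was highest in starch 4 (6465 CPM), starch 3 (4724 CPM) and starch 11 (3983 CPM), while starch 9 read 2148 CPM and starch 7 read 1664 CPM, near the control median of 2201 CPM. CXCL10 followed it closely (r 0.85, rho 0.83, adjusted permutation p = 0.0069 over all tested genes). Its r was 0.89 without starch 4 and starch 5, the 2 piglets farthest from the median of that list's level. By rho BST2 (r 0.61, rho 0.70), NMI (r 0.71, rho 0.63), UBA7 (r 0.57, rho 0.62), TRIM25 (r 0.48, rho 0.59) and EPSTI1 (r 0.46, rho 0.59) also passed. By r TRIM25 and EPSTI1 did not (adjusted permutation p = 0.0930 and 0.105). Without the same 2 piglets r was 0.65 for BST2, 0.61 for NMI, 0.44 for UBA7, 0.38 for TRIM25 and 0.35 for EPSTI1. The 6 of 38 that passed by rho stand beside 8.01% of all tested genes, and 0 of 38 passed with a negative sign, beside 7.07%.

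DTX3L (r 0.90, rho 0.72), PARP9 (r 0.86, rho 0.69) and IRF7 (r 0.65, rho 0.65) correlated with the summed enterocyte markers at an adjusted permutation p under 0.05 for rho. By rho 16.2% of all tested genes passed, so 3 of 38 is less than the background share, and 0 of 38 passed with a negative sign, against 14.7%. By r these 3 passed, as did IFI44L, IFIH1, SP110 and OAS2 (adjusted permutation p = 0.0072, 0.0142, 0.0179 and 0.0412). Without starch 3 and control 5, the 2 piglets with the lowest sums, r was 0.48 for IFI44L and IFIH1, 0.45 for SP110 and 0.41 for OAS2. It was then 0.83 for DTX3L, 0.82 for PARP9 and 0.58 for IRF7. The share of all tested genes was not counted for r. Control 5, control 8 and starch 3, which had the lowest enterocyte sums, were also the 3 lowest piglets for DTX3L and PARP9. The part of epithelial content in the level of these genes was not tested.

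**Figure D4:**
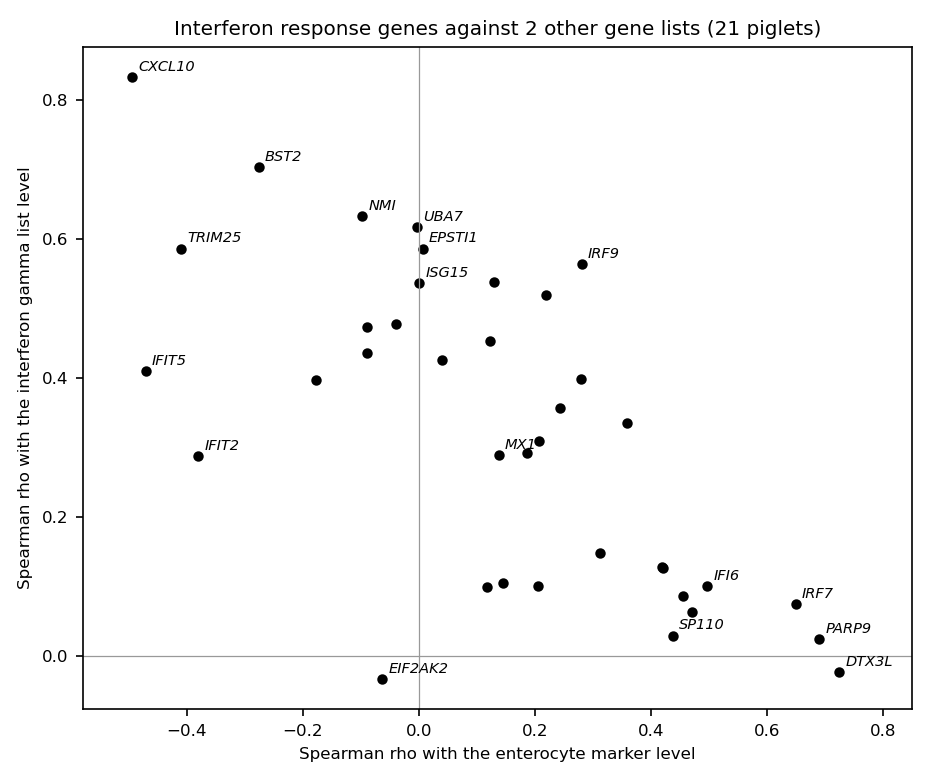
Each of the 38 interferon genes by its Spearman rho over 21 piglets with the summed enterocyte markers (horizontal) and with the summed interferon gamma list (vertical). CXCL10 lies at the top left, with rho 0.83 for the gamma list, DTX3L and PARP9 at the lower right, and MX1 near the middle.

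No list of cell type markers passed a test against MX1. Of 12 lists of cell type markers, 0 had an adjusted p under 0.05 for their summed level against MX1 in the permutation test, and 0 had an unadjusted p under 0.05. The largest coefficient in size was that of T cells for rho (0.38, r 0.31, permutation p = 0.0921) and that of red blood cells for r (-0.40, permutation p = 0.0736). Without starch 7 and starch 9 rho was 0.43 for NK and cytotoxic cells (permutation p = 0.0667) and 0.39 for T cells (permutation p = 0.0944). With these numbers of piglets, a moderate correlation could be missed. Plasmacytoid dendritic cells, specialised makers of type I interferon, had 5 of 8 markers matched, and CLEC4C, LILRA4 and IL3RA were not among them. Most of their sum came from TCF4 (median 27.5 CPM), BCL11A (23.8 CPM) and SPIB (8.88 CPM). SPIB was highest in starch 10 (34.6 CPM) and read 29.4 CPM in starch 9, both high for B-cell markers. Which cells these counts came from was not tested. The sum of the 5 matched markers ran from 50.2 to 106.7 CPM, with 67.1 CPM in starch 7 and 83.9 CPM in starch 9 (rho 0.0039 with MX1). The marker SCT was at 0 in 18 piglets.

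Few counts came from most of the interferon genes that could be looked up. No gene of the files matched IFNA1, IFNW1, IFNL1 or IFNL3, so interferon lambda was not analysed here. IFNB1 had 1 count in all 21 libraries together, in starch 4. The gene named IFN-ALPHA-15 had 159 counts in 18 piglets, at most 22 in control 9, and IFNK had 14. IFNE, the interferon made constitutively by some epithelia, was the only ligand past the filter, with 759 counts over all 21 piglets and rho 0.045 with MX1. IFNG, the type II interferon, had 218 counts, of which 71 were in starch 3, and 0 in starch 7.

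The question the design poses is whether added starch changes expression, and for the interferon genes no member passed the test. In edgeR's quasi-likelihood test with Benjamini-Hochberg adjustment, 0 of 38 had an adjusted p under 0.05, where 0% of all 13127 tested genes were called. At an unadjusted p under 0.05 the count was also 0 of 38, against 1.33% of all tested genes. DESeq2 and limma on log2(FPKM + 0.5) called 0 of 38 too, at an adjusted and at an unadjusted p under 0.05. Each called 0 of all tested genes at an adjusted p under 0.05. At an unadjusted p under 0.05 DESeq2 had 293 of 18630 genes and limma 227 of 13342. The smallest unadjusted p was 0.126, and the 95% interval of all 38 included 0. The ranges of the diets overlapped for all 38 genes, as they did for 100% of all tested genes.

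The fitted fold changes leaned to starch, while the medians of the diets leaned little. The fitted log2 fold change was above 0 for 35 of 38 genes, all but OAS2, EIF2AK2 and IRF9, where 51.1% of all tested genes were above 0, and its median was 0.27 against 0.0039 over all tested genes. On all 21 piglets, limma on log2(FPKM + 0.5) put 24 of 38 above 0 with a median of 0.075, and 11 genes had the other sign. With the replicate number as a block, in a fit without starch 11, 30 of 38 were above 0 with a median of 0.076. The control median was above the starch median for 22 of 38 genes, not far from the 50.7% of all tested genes. MX1 had a mean of 145 ± 191 CPM in starch piglets (SD, n = 11) and 116 ± 94.5 CPM in controls (SD, n = 10). Its median was lower on starch. The SEs ran from 0.17 to 1.03 log2 units.

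The sign also moved with single piglets, starch 9 and starch 7 most of all. Without starch 9, 19 of 38 genes were above 0 (background 51.5%) and the median was -0.0014. Without starch 7 the count was 27 of 38 (background 52.1%), with a median of 0.14. An unadjusted p under 0.05 was found for 0 of 38 in either fit, against 0.895% and 1.27% of all tested genes. Without both, a fit added after the data were seen, 7 of 38 were above 0 (background 52.4%) and the median was -0.25. MX2 (-0.94, p = 0.0288), MX1 (-0.94, p = 0.0321) and IFI6 (-1.13, p = 0.0481) then had an unadjusted p under 0.05 in the edgeR test, 3 of 38 against 0.8% of all tested genes, and all on the lower side, where 0.556% stood, and none had an adjusted p under 0.05. That fit takes the 2 highest starch piglets out and keeps control 2 and control 9, so its sign is set in part by what was left out. Of the 9 genes with a printed fold change, 7 had their lowest value without starch 9 and 2, IFI6 and MX1, without starch 7. RSAD2 stood at 0.14 without starch 9 and at 1.59 without control 9, ISG15 at 0.14 and 1.25, and MX2 at 0.13 and 1.37. OASL stood at 0.71 without starch 9 and at 2.16 without control 2, and IFIT1 at 0.12 and 0.95. Without control 5, control 8 and starch 3 the count was 31 of 38 and the median 0.18.

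**Figure D5:**
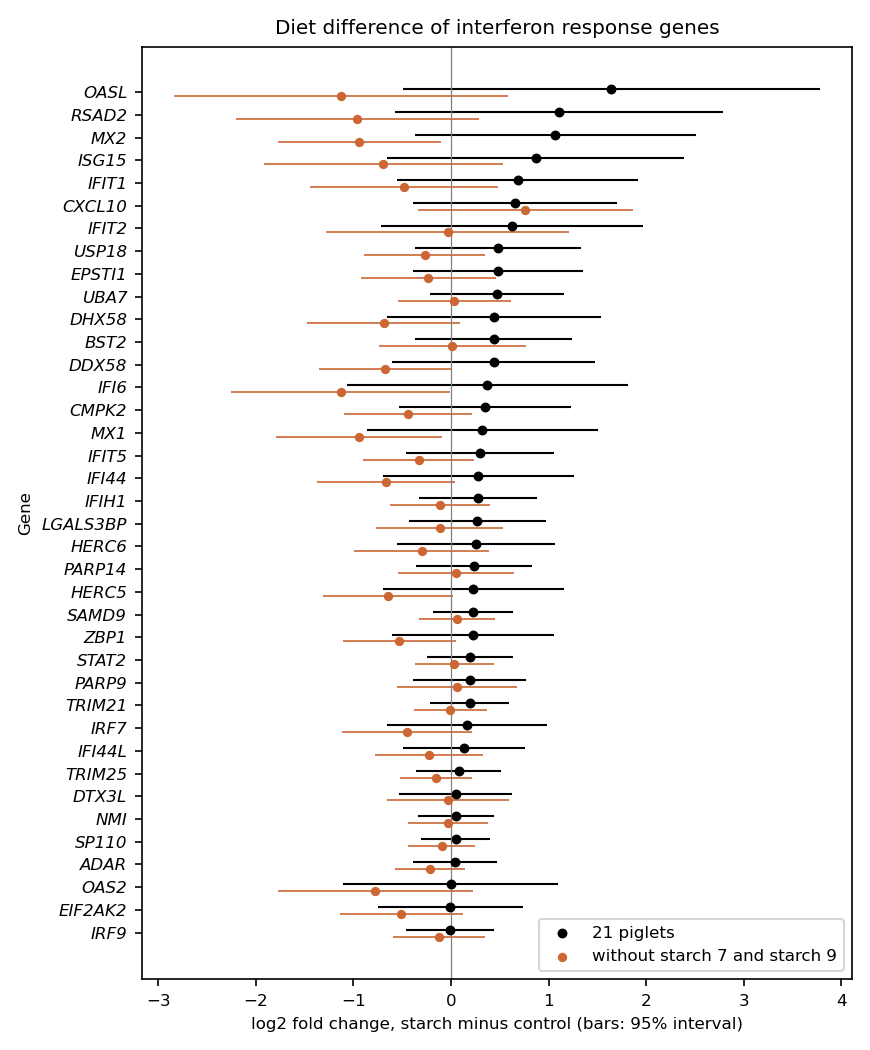
Fitted log2 fold change, starch minus control, of the 38 interferon genes with 95% intervals, over all 21 piglets (black) and without starch 7 and starch 9 (orange). All black intervals include 0, 35 black points lie right of 0, and 7 orange points do.

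Genes around the pathway gave no call by diet either, with 0 past an adjusted p of 0.05 in each of the 7 lists. Of 32 tested further interferon-stimulated genes 28 were above 0 (median log2 fold change 0.17), and of 18 tested genes known mainly for interferon gamma 17 (0.34). Of 14 sensors and adaptors 12 were (0.099), of 11 negative regulators 8 (0.13), of 6 JAK-STAT genes 5 (0.14) and of 5 receptor genes 4 (0.021). The 1 tested ligand, IFNE, was at -0.15. Of all tested genes 51.1% were above 0. The sum of the further genes was highest in starch 9 (4080 CPM), with a median of 1949 CPM in controls and 2313 CPM on starch. The gamma sum was highest in starch 4 (6465 CPM), and its median was 2201 CPM in controls and 2056 CPM on starch. The part of single piglets in these counts was not tested. The receptor chains IFNAR1 and IFNAR2 ran from 34.4 to 82.4 and from 73.3 to 159 CPM over the piglets and had rho of 0.027 and -0.022 with MX1. The 1 gene of these lists with an unadjusted p under 0.05 was TOR1B (log2 fold change 0.32, p = 0.0275 in the edgeR test), where 1.33% of all tested genes stood.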

How the data were processed

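The authors deposited 1 table per piglet with a row per transcript, holding, per the file headers, a length, an expected (estimated) count and an FPKM value. The expected counts stand as the authors estimated them, with no normalisation, while the deposited FPKM values already include the authors' scaling to length and library size. HISAT and DESeq2 are named in the submitters' processing notes, without version or role. The counting program is not given in the sources used here, nor are the strand setting and the genome build. Lengths were coding lengths. Reads of related genes (MX1 and MX2, the IFIT genes, HERC5 and HERC6) were divided by the authors' estimate, so their split is uncertain, although 0 members had counts identical to another gene. Without strand, overlapping genes cannot be told apart.

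Expected counts were summed per gene and rounded, and 14276 of 18661 genes (76.5%) had a symbol. DDX58 was found under the symbol RIGI. Genes passing filterByExpr (minimum count 10) were fitted in edgeR 4.0.16 with TMM scaling and a single term, diet, using all 21 piglets, with a Benjamini-Hochberg threshold of 0.05. The code was tested on simulated data. Correlations used log2 CPM (prior count 2) and 100000 two-sided permutations, and their p-values were adjusted over all tested genes, in place of the members alone as first planned. Alternatives were RLE and upper-quartile scaling, other filters, DESeq2 1.42.0, limma 3.58.1 on log2(FPKM + 0.5), with 0.1 and 1 also tried, the replicate number as a block, and leaving out each piglet. Leaving out starch 7 with starch 9, or control 5, control 8 and starch 3, was added after seeing the data, as were the comparisons with the interferon gamma and enterocyte lists and of neighbouring genes. The members and lists were chosen with earlier results of these data known. Fold changes are given for the 8 members with the largest SD of log2 CPM and for MX1. CXCL10, DDX58 and other members given by piglet were chosen after their values were seen.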

Additional observations from a re-analysis of the deposited data

How the results depend on the processing

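No alternative of those run called a member, or any other gene. The count of members above 0 fell to 23 of 38 with log2(FPKM + 0.1), and the median stayed above 0 with each scaling, filter and tool run on all 21 piglets. Leaving out 1 piglet at a time gave 19 to 38 members above 0 and medians from -0.0014 to 0.38, the lowest of both without starch 9, and over these 21 fits the fold change of OAS2 ran from -0.37 to 0.24, of IFI6 from -0.61 to 0.95, of MX1 from -0.18 to 0.65, of IFIT2 from -0.084 to 1.08, of OASL from 0.71 to 2.16, of RSAD2 from 0.14 to 1.59, of ISG15 from 0.14 to 1.25, of MX2 from 0.13 to 1.37 and of IFIT1 from 0.12 to 0.95. Without starch 7 and starch 9, 7 members were above 0, the median was -0.25, and the values were -1.13 for OASL and IFI6, -0.96 for RSAD2, -0.69 for ISG15, -0.036 for IFIT2, -0.94 for MX2 and MX1 and -0.48 for IFIT1. DESeq2 gave -0.65 for IFI6, and no filter gave 0.0044 for OAS2. With log2(FPKM + 0.5), filtered or not, IFI6 was at -0.065, MX2 at -0.029 and MX1 at -0.21. With 0.1 they were at -0.067, -0.066 and -0.22, and with 1 IFI6 was at -0.063 and MX1 at -0.21. The cause of these reversals was not tested. By rho, the count of members correlated with MX1 at an adjusted p under 0.05 was 0 in place of 14 without the 2 piglets farthest from the median, where fewer genes reached the smallest p of the permutations. By Pearson r the count was 11 in place of 27, with no share of all tested genes counted beside it.

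With the replicate number as a replicate block, 30 members were above 0 with a median of 0.076, and ISG15 (-0.062), MX2 (-0.042) and MX1 (-0.21) turned below 0. That fit left out starch 11, which has no control of the same number. Without starch 11 and with no block, 36 members were above 0 with a median of 0.28. The labels do not say whether the numbers pair the piglets. Over 10 same-numbered pairs the correlation of deviations ran from -0.34 to 0.48, and 0 controls correlated best with their own number. A pairing need not show in such correlations, so they do not settle the question. The lowest count of a member was 5, and the median biological coefficient of variation was 61.3% for the members against 31.7% for all tested genes. The part of depth in the width of the intervals was not tested.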

Other observations

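Some members lie side by side in the genome, and 8 pairs had at most 2 protein-coding genes between them by the order of genes in RefSeq (Sscrofa11.1). The pairs DTX3L and PARP9 (Pearson r 0.96, Spearman rho 0.96), IFI44 and IFI44L (r 0.94, rho 0.95), and RSAD2 and CMPK2 (r 0.97, rho 0.94) had some of the highest correlations across the 21 piglets. HERC5 and HERC6 (r 0.87, rho 0.82) and MX1 and MX2 (r 0.90, rho 0.69) followed. PARP14 was tied less closely to PARP9 (r 0.67, rho 0.68) and DTX3L (r 0.57, rho 0.62). IFIT1 and IFIT2 were the loosest pair (r 0.46, rho 0.37, permutation p = 0.102 for rho). Without the 2 piglets farthest from the IFIT2 median their r was 0.20. Without the 2 piglets farthest from the RSAD2 median, chosen separately, the r of RSAD2 and CMPK2 was 0.95. Over all 703 pairs of members the median rho was 0.67, so both PARP14 pairs and the pair MX1 and MX2 lay near or below that value.

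Starch 9 and starch 7, the highest piglets for most members, differed from each other by gene. Starch 9 was the higher for 32 members and starch 7 for 6, namely IFI6, MX1, IRF7, LGALS3BP, IRF9 and IFI44L. IFI6 was 3.08-fold higher in starch 7, and at the other end IFIT2 was 11.4-fold, CXCL10 3.62-fold, ZBP1 2.18-fold and STAT2 2.15-fold higher in starch 9. Each is 1 library, so no test was made of these differences.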
